A study of Mus musculus with 14 samples.

Results

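Rps4l is a copy of the ribosomal protein gene Rps4x whose signal varied widely among 12 mouse osteosarcomas, and the tumours were divided by it. The 8 Rps4l-high osteosarcomas had a signal of at least 1000 for Rps4l and the 4 Rps4l-low osteosarcomas a signal below that. The 12 tumours belong to a series of 14 arrays, of which the other 2 are a tumour labelled rhabdomyosarcoma and mc3T3, a cultured non-tumorigenic mouse osteoblast line that was not treated. All 13 tumours arose in p53+/- mice, a genotype shared by both sides of the split and by the tumour labelled rhabdomyosarcoma. The labels do not give the age, sex, strain or treatment of the mice, nor whether each tumour came from a separate animal, so the p-values below measure the spread between these tumours only. Each array reads total RNA of a whole tumour, in which fewer cells of a type and less RNA per cell cannot be told apart.

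Rps4x, on the X chromosome, encodes a protein of the small ribosomal subunit that every cell needs. Rps4l is annotated as a transcribed pseudogene on chromosome 6. When mice of a colony carry different inherited forms of a stretch of chromosome, a gene can be on in some animals and off in others, and genes nearby on the same chromosome can then follow the same division. The comparison asks whether other on-off genes, and the neighbours of Rps4l, divided the 12 tumours as Rps4l did.

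The tumours of each side were chosen by their Rps4l signal, so the Rps4l values are given as a description with no test. The array holds 1 probe set for Rps4l. Its signal, in array units on a linear scale, was 10969 in osteosarcoma 3, 9060 in osteosarcoma 1, 7534 in osteosarcoma 12, 7466 in osteosarcoma 6, 7167 in osteosarcoma 9, 3973 in osteosarcoma 2, 3690 in osteosarcoma 10 and 1414 in osteosarcoma 11, which are the Rps4l-high tumours. It was 202 in osteosarcoma 8, 123 in osteosarcoma 7, 114 in osteosarcoma 5 and 39.5 in osteosarcoma 4, which are the Rps4l-low tumours. The median was 7317 on the high side and 119 on the low side. The tumours nearest to the threshold were osteosarcoma 11 at 1414 and osteosarcoma 8 at 202, a ratio of 7.01, while the high side itself spanned a ratio of 7.76. Osteosarcoma 11 is thus about as far from the brightest tumour as from the low side.

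Outside the osteosarcomas, Rps4l read 267 in the rhabdomyosarcoma array, close to osteosarcoma 8, and 4.7 in the mc3T3 array. Rps4x was bright on every array on 1 of its 2 probe sets, the other reading at most 42.5, with a lowest, median and highest signal on the bright one of 32174, 41561 and 53830 in Rps4l-high osteosarcomas. In Rps4l-low osteosarcomas Rps4x was at 45653, 46012, 51111 and 38757, inside the range of the high side. Its difference, high minus low, was -0.08 ± 0.17 (SE) on the log2 scale with an adjusted p of 0.938 in limma. On the 1 mc3T3 array the Rps4x signal was 45236 and the Rps4l probe set read 4.7. Whether Rps4x RNA adds to the signal of the Rps4l probe set was not tested.

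**Figure D1:**
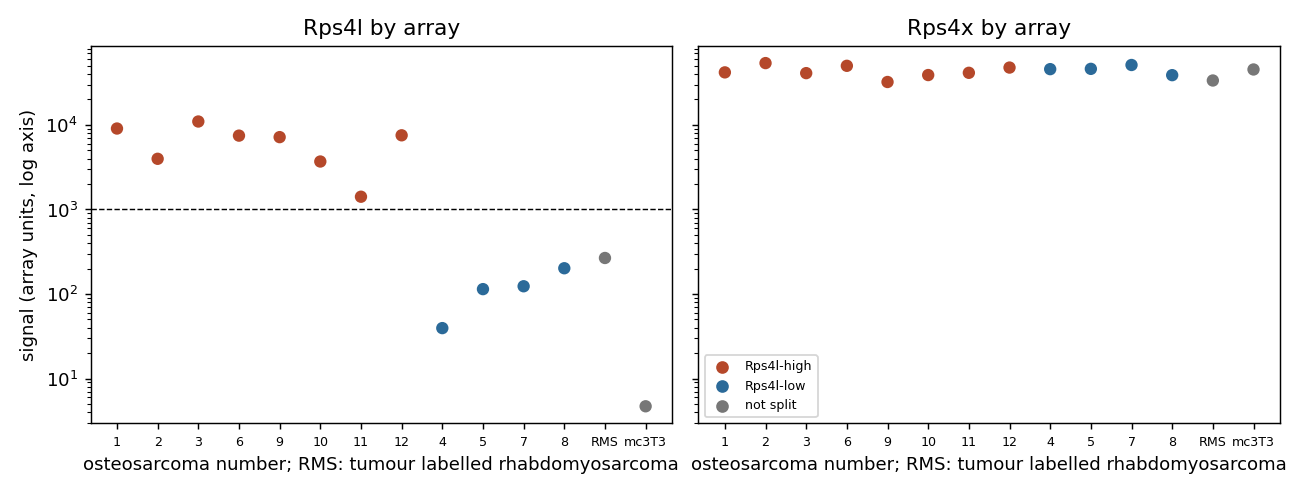
Signal of Rps4l and of Rps4x on each of the 14 arrays (log axis, array units; 1 point an array, with Rps4l-high osteosarcomas left of Rps4l-low osteosarcomas, then the tumour labelled rhabdomyosarcoma, RMS, and mc3T3). Rps4l lies between 1414 and 10969 in Rps4l-high tumours and between 39.5 and 202 in Rps4l-low tumours, while Rps4x lies at 32174 or more on every array.

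Both sides had the defining markers of bone-forming tumours. Ibsp, which encodes bone sialoprotein, had a lowest, median and highest signal of 30967, 35417 and 49087 in Rps4l-high osteosarcomas and 30210, 38330, 36561 and 34377 in Rps4l-low osteosarcomas, against 155 in the tumour labelled rhabdomyosarcoma. Sp7, the osteoblast transcription factor, was at 1488 to 4132 in Rps4l-high tumours and 1158 to 2637 in Rps4l-low tumours. Array quality overlapped between the sides. The 3' over 5' signal of beta-actin was 1.42 to 2.13 in Rps4l-high tumours and 1.44 to 1.85 in Rps4l-low tumours (two-sided exact permutation test over 495 splits, p = 0.517). The mean correlation between 2 tumours was 0.910 within the high side, 0.903 within the low side and 0.906 across the sides. The tumours' identifiers start with c, m or o, with 3, 4 and 1 tumours on the high side and 1, 2 and 1 on the low side, so each letter occurs on both sides. The labels do not say what the letters mean, and a fit with the letter as a block also called 0 genes.

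No tested gene was called between the sides. Of 11814 genes tested besides Rps4l, 0 were higher and 0 were lower in Rps4l-high osteosarcomas (0%) by limma on log2(signal + 30), where a call needs a Benjamini-Hochberg adjusted p under 0.05 and a difference of at least 1. At an unadjusted p under 0.05 there were 739 genes (6.26%), of which 404 lay above 0 (3.42%) and 335 below 0 (2.84%), and the lowest adjusted p was 0.195. The median difference over all genes was 0.00. Leaving out osteosarcoma 1 gave 1 higher gene, Lingo3 (2.67, adjusted p = 0.00352). Leaving out osteosarcoma 5 gave 3 higher genes, Mrgprf (2.81, adjusted p = 0.028), Rom1 (1.97, adjusted p = 0.0408) and Mdga1 (1.87, adjusted p = 0.028), and 1 lower gene, Sfmbt2 (-1.87, adjusted p = 0.028).

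The gene with the smallest p was Lingo3, a transmembrane protein with leucine-rich repeats. Its lowest, median and highest signals were 41.7, 187 and 444 in Rps4l-high osteosarcomas, against 19, 9.1, 1.9 and 6.3 in Rps4l-low osteosarcomas. The sides did not overlap, but the low side read close to 0 and the dimmest high tumour, osteosarcoma 1, reached only 41.7. The difference was 2.45 ± 0.38 (SE, adjusted p = 0.195), on a scale that understates the change of dim genes. Tpd52l1, of the tumour protein D52 family, had signals of 204, 351 and 637 (lowest, median and highest) in Rps4l-high tumours, against 161, 109, 99.2 and 85.4 in Rps4l-low tumours. Its difference of 1.44 ± 0.26 had an adjusted p of 0.491. Lingo3 and Tpd52l1 are both on chromosome 10, not on that of Rps4l.

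The other genes filling the 10 smallest p-values above 0 also missed the test, each with an adjusted p of 0.648 or 0.663. They were Cxxc5, a zinc-finger protein (1.27 ± 0.25), Rhpn2 (1.85 ± 0.37), the ectonucleotidase Entpd3 (2.03 ± 0.45), the adhesion adaptor Ajuba (0.78 ± 0.17), the stress-response factor Atf5 (1.66 ± 0.38), the receptor Ager (1.77 ± 0.40), the synuclein-binding Sncaip (1.10 ± 0.25) and Ltbp4, which binds latent TGF-beta (1.02 ± 0.24). They span 6 chromosomes with Lingo3 and Tpd52l1 included, and none lies on chromosome 6. With the mean of its probe sets Sncaip was at 0.63. Below 0, Tcf7l1, a repressor at Wnt target genes, had 501, 719 and 1343 as its lowest, median and highest signal in Rps4l-high tumours. It had 1929, 1722, 1547 and 2141 in Rps4l-low tumours. All 4 low tumours lay above every high tumour, with a difference of -1.19 ± 0.24 (adjusted p = 0.648). The gene's other probe set gave -0.54, and on it the sides overlapped. Tcf7l1 lies on chromosome 6, outside the neighbours of Rps4l described below.

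The remaining 9 genes below 0, with adjusted p-values of 0.663, were Atxn1l, a relative of ataxin 1 (-0.98 ± 0.23), the GDNF co-receptor Gfra1 (-1.45 ± 0.38), Caml, which helps insert membrane proteins (-0.67 ± 0.18), the kinase Csnk1d (-0.77 ± 0.21), the ciliary BBSome subunit Bbip1 (-0.83 ± 0.23), the sugar kinase Nagk (-0.62 ± 0.17), the mitochondrial ribosomal protein Mrpl39 (-0.55 ± 0.15), Cttnbp2nl (-0.62 ± 0.17) and Tmem170 (-0.77 ± 0.22). These values come from each gene's brightest probe set. With the mean of a gene's probe sets Csnk1d was at -0.23, Bbip1 at -0.41, Nagk at -0.34 and Cttnbp2nl at -0.33.

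The sides did not overlap for 44 of the 11814 genes (0.372%), 21 with all Rps4l-high tumours above (0.178%) and 23 with all below (0.195%). An arbitrary order of the tumours would part the sides in about this share of genes, so the count is no excess. These genes lie on 16 chromosomes, and 3 of them, Nagk, Tcf7l1 and Samd9l, are on chromosome 6. In none were the sides 1 log2 unit or more apart. The gap of Rps4l was 2.64, but its own values set the sides, so it is no yardstick for these genes. The gap was at least 0.5 in 1 gene, Lingo3 (0.55), and at least 0.25 in 4, which adds Tpd52l1 (0.30), Mrpl39 (0.27) and Ajuba (0.27).

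Genes whose level over the 12 tumours was most like that of Rps4l are given by Pearson's r of log2(signal + 30), as a description. The highest values were 0.887 for Sidt2, 0.870 for Ltbp4, 0.866 for Srpr, 0.849 for Tmem238, 0.843 for Ager and 0.838 for Reep5. The lowest were -0.914 for Swt1, -0.833 for Polr2b, -0.828 for Vcpip1 and -0.822 for Rpap2. None of these is among the on-off genes described below. Sidt2, a lysosomal membrane protein, had 799, 1332 and 1590 as its lowest, median and highest signal in Rps4l-high tumours and 631, 936, 788 and 653 in Rps4l-low tumours, and the sides overlapped. Swt1, an RNA endonuclease, had 304, 354 and 458 in Rps4l-high tumours and 619, 530, 554 and 445 in Rps4l-low tumours. The points share the 12 arrays and fall into 2 clusters of Rps4l values, so r says little beyond the division itself.

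Genes that were on in some tumours and off in others were then found without use of the Rps4l split. A gene counted as on-off where a gap of at least 1.5 log2 units parted the tumours, with at least 2 on each side, every on tumour at 200 or more and every off tumour below 200. Rps4l itself has a gap of 2.64 but narrowly fails the border, since osteosarcoma 8 reads 202. The rule found 52 on-off genes on 18 chromosomes, with 30 distinct divisions of the tumours. None had the Rps4l division. Only 2 of the 52 had 8 or 4 tumours on and could have matched it exactly, so the count of 0 has few chances behind it. In the others the number of tumours on was different from the start, most often 2 (27 genes) or 10 (11 genes).

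Measured by how many tumours lay on the other side, 3 genes differed from the Rps4l split in 2 tumours, 2 genes in 3, 17 genes in 4, 9 genes in 5 and 21 genes in 6, which is the most a division of 12 tumours can give. Among the 3 nearest was Cpz, a secreted carboxypeptidase that binds Wnt proteins. Its signals were 79.2, 1218 and 1784 (lowest, median and highest) in Rps4l-high tumours, the lowest being osteosarcoma 3, and 111, 397, 3.8 and 120 in osteosarcomas 4, 5, 7 and 8 of the low side. Cpz was thus off in 3 of the 4 low tumours, on in osteosarcoma 5, and off in the tumour with the brightest Rps4l. Its difference was 2.79 ± 0.74 (adjusted p = 0.663).

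Cacna2d1, an accessory subunit of calcium channels, was at 535, 826 and 1429 (lowest, median and highest) in Rps4l-high tumours and at 487, 13.8, 147 and 505 in Rps4l-low tumours. It was off in osteosarcomas 5 and 7 alone, and its other 2 low tumours were just below the high side (2.07 ± 0.56, adjusted p = 0.663). On its other probe set the difference was 0.92 and osteosarcoma 12 of the high side, at 62.2, lay below osteosarcoma 7 at 83.3. Ms4a4d, of a family of membrane-spanning proteins, was at 235, 848.7 and 4994 in Rps4l-high tumours and at 1322, 2195, 7.6 and 58.0 in Rps4l-low tumours. It was off in osteosarcomas 7 and 8 and as bright as the high side in the other 2. Hapln1, which links hyaluronan to proteoglycans, ran the opposite way and was on in osteosarcomas 3, 5 and 7. Naalad2, a membrane peptidase, was off in osteosarcomas 2, 5 and 7.

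**Figure D2:**
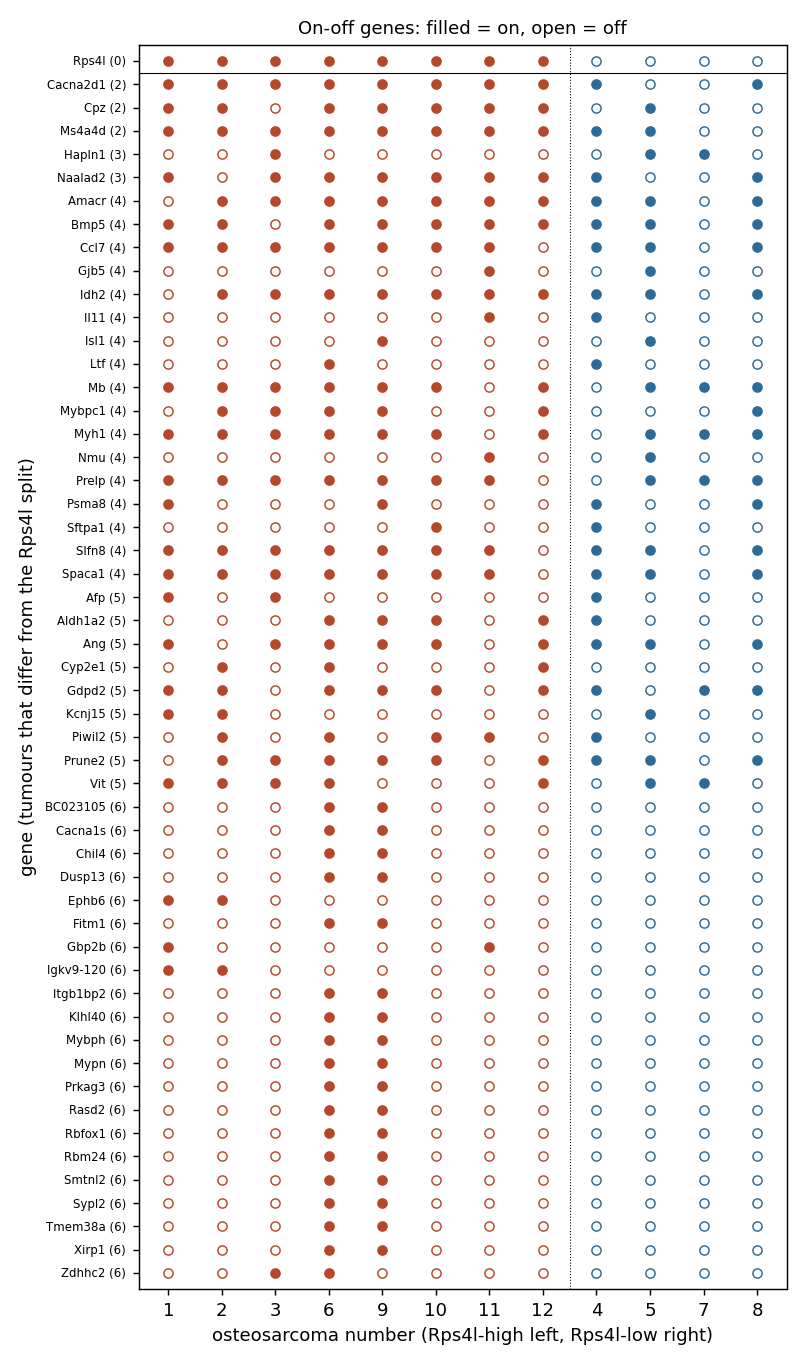
On (filled) or off (open) state of Rps4l and of the 52 on-off genes in each of the 12 osteosarcomas, with Rps4l-high tumours left of Rps4l-low tumours. The number after each name is how many tumours differ from the Rps4l split; it is 0 for Rps4l alone, and 2 or more for all 52 genes.

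The widest gap belonged to Idh2, the mitochondrial isocitrate dehydrogenase. Idh2 was at 26 in osteosarcoma 1 of the high side and at 71.7 in osteosarcoma 7 of the low side, against 1546 to 5329 in the other 10 tumours, a gap of 3.95. On that probe set it was thus off in 1 tumour of each side. The gene's other probe set was dim and went another way, with 47.7 in osteosarcoma 1 and 230 in osteosarcoma 7, its highest value among the 12 tumours. Gbp2b, a guanylate-binding protein and the only on-off gene in a list of genes known to vary between mouse strains, was at 833 in osteosarcoma 1 and 756 in osteosarcoma 11, both Rps4l-high, and at most 69.5 in the other tumours of both sides. Bmp5, a bone growth factor, was off in osteosarcomas 3 and 7 (37.8 and 5.9) and between 472 and 2377 elsewhere. Psma8, a proteasome subunit of the male germ line, was on in osteosarcomas 1 and 9 of the high side and 4 and 8 of the low side.

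The most frequent division, osteosarcomas 6 and 9 against the rest, held 17 of the 52 genes, among them the muscle genes Cacna1s, Klhl40 and Xirp1. Both tumours are Rps4l-high. All 18 measured members of a skeletal muscle list had a difference above 0 between the sides, with a median of 1.81 against 0.00 over all genes, yet none was called. Acta1, the actin of skeletal muscle, had 204, 4342 and 46907 as its lowest, median and highest signal in Rps4l-high tumours and 8.5, 1700, 442 and 9842 in Rps4l-low tumours. The list's mean log2 level was 14.0 in osteosarcoma 6 and 13.2 in osteosarcoma 9, 6.71 to 10.99 in the other Rps4l-high tumours and 6.44 to 10.86 in the Rps4l-low tumours. Without osteosarcomas 6 and 9 the median was 0.50 and 13 of the 18 lay above 0, and still no gene of the array was called. The part of muscle tissue in the other differences was not tested further.

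On chromosome 6 itself there were 2 on-off genes, Ephb6, a receptor of the ephrin family, and Igkv9-120, a variable segment of the antibody kappa chain. Both were on in osteosarcomas 1 and 2 and off in the other 10, so neither told the other Rps4l-high tumours from the low side. Across the genome, 63 pairs of on-off genes shared a chromosome, of which 9 had the same division. Within 25 measured genes of each other lay 9 pairs, and 5 of these had the same division. Of those 5 pairs, 4 had the division of osteosarcomas 6 and 9. The fifth was Ccl7 and Slfn8 on chromosome 11, both off in osteosarcoma 12 of the high side and osteosarcoma 7 of the low side.

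Other settings of the on-off rule also gave no gene with the Rps4l division, though under most of them few or no genes could have matched it. With a gap of 1 in place of 1.5 there were 141 on-off genes, of which 15 had 8 or 4 tumours on, and the nearest was Sfmbt2, which differed in 1 tumour. Under quantile normalization the nearest was Maob and with no signal border it was Adam23, each again differing in 1 tumour. In all 3 the tumour was osteosarcoma 5. Sfmbt2, a Polycomb-group protein, was at 36.8, 69.1 and 99 (lowest, median and highest) in Rps4l-high tumours and at 294, 9.8, 318 and 328 in osteosarcomas 4, 5, 7 and 8. Adam23, a membrane protein of the ADAM family, was at 140, 190 and 1505 in Rps4l-high tumours and at 12.2, 272, 4.9 and 7.6 in Rps4l-low tumours. Maob, the X-linked monoamine oxidase, was at 198, 379 and 1512 in Rps4l-high tumours and at 34.6, 699, 27.1 and 59.1 in Rps4l-low tumours. For these genes, which were picked after their values were seen, osteosarcoma 5 read on the side of the Rps4l-high tumours although its own Rps4l signal was 114.

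**Figure D3:**
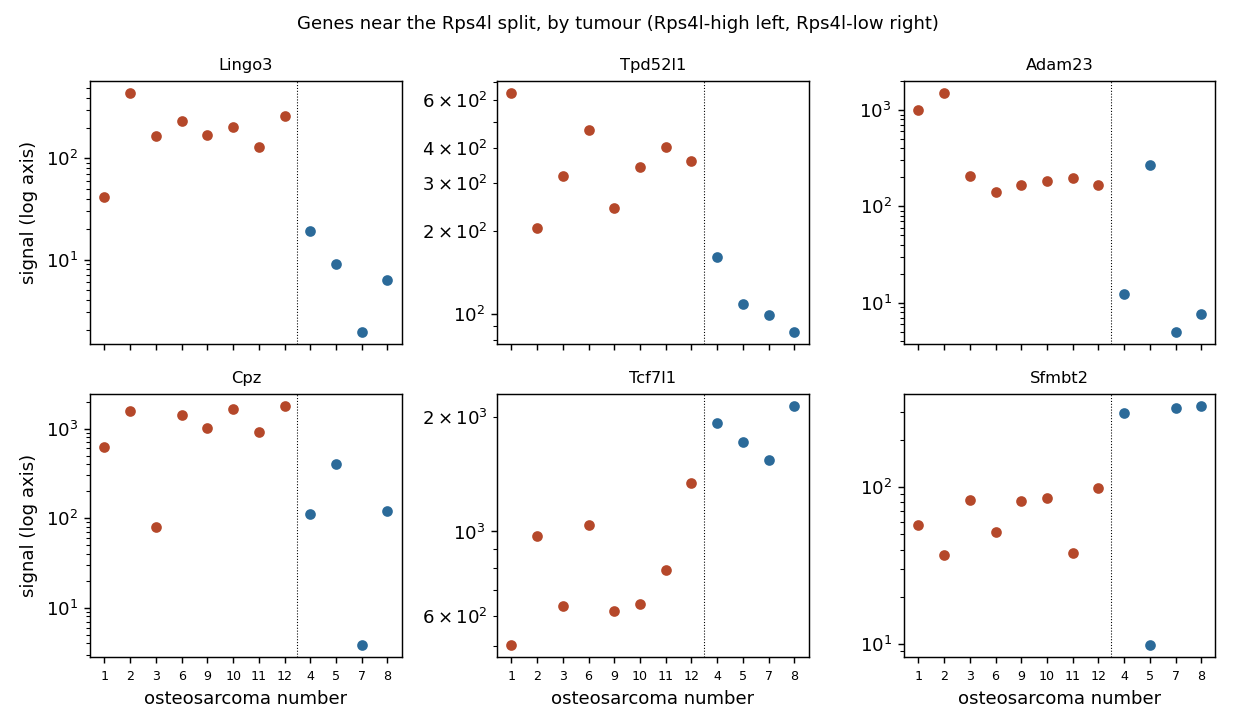
Signal of Lingo3, Tpd52l1, Adam23, Cpz, Tcf7l1 and Sfmbt2 in each of the 12 osteosarcomas (log axes, array units; 1 point a tumour, Rps4l-high tumours left of Rps4l-low tumours). Lingo3, Tpd52l1 and Tcf7l1 do not overlap between the sides, while in Adam23, Cpz and Sfmbt2 osteosarcoma 5 lies on the side of the Rps4l-high tumours.

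No measured neighbour of Rps4l divided the tumours as it did. Of measured genes in the gene table's order, 25 on one side of Rps4l and the 7 that remain before the chromosome's end on the other were examined, 32 in all. None was called (0 of 32, against 0% over all genes), in none did the sides stop overlapping (against 0.372% over all genes), and the lowest adjusted p was 0.769. At these shares most sets of 32 genes would also give 0, so the counts say little about the neighbours in particular. The differences ran from -0.57 for Kcnj8, the pore of a potassium channel, to 1.32 for Bcat1, with a median of -0.19. They lay above 0 for 8 neighbours and below 0 for 24. Chromosome 6 as a whole also leaned below 0, with a median of -0.11 over 629 genes, against 0.00 over all genes. At an unadjusted p under 0.05 there were 3 (against 6.26% of all genes), namely Rassf8 (-0.56 ± 0.21), Amn1 (-0.50 ± 0.21) and Resf1 (-0.53 ± 0.23), a gene for silencing of retroelements. The other probe set of Amn1 gave -0.13, and the other 3 of Resf1 gave -0.88, -0.47 and -0.16.

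The nearest neighbour on each side shows how far the levels were from the Rps4l division. Tmtc1, which adds mannose to cadherins, had 30.6, 136 and 492 (lowest, median and highest) in Rps4l-high tumours and 141, 173, 56.7 and 85.4 in Rps4l-low tumours (0.32 ± 0.48, adjusted p = 0.897). Ipo8, a nuclear import receptor, had 617, 1020 and 1366 in Rps4l-high tumours and 1347, 1105, 1547 and 1194 in Rps4l-low tumours (-0.41 ± 0.21, adjusted p = 0.788). In both genes all 4 low tumours fell inside the range of the high side or close above it. Beyond Tmtc1 came Ergic2, of transport between the endoplasmic reticulum and Golgi (-0.40 ± 0.28), Ccdc91 (0.09 ± 0.32), the ubiquitin-ligase adaptor Klhl42 (-0.15 ± 0.50) and the mitochondrial ribosomal protein Mrps35 (-0.14 ± 0.20). Beyond Ipo8 came the RNA-binding Caprin2 (-0.33 ± 0.25), the Sin3 complex member Sinhcaf (0.02 ± 0.22), Dennd5b (-0.20 ± 0.25) and the methyltransferase Etfbkmt (-0.21 ± 0.24). With the mean of its probe sets Etfbkmt was at -0.47. Leaving out 1 tumour moved Tmtc1 between 0.09 (without osteosarcoma 6) and 0.54 (without osteosarcoma 11), Ergic2 to -0.21 (without osteosarcoma 5) and Caprin2 to -0.19 (without osteosarcoma 12).

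Bcat1, the cytosolic branched-chain aminotransferase, had the largest difference among the neighbours. Its signals were 493, 1818 and 3394 (lowest, median and highest) in Rps4l-high tumours and 368, 3708, 165 and 468 in osteosarcomas 4, 5, 7 and 8. The brightest of all 12 was thus an Rps4l-low tumour, osteosarcoma 5, and the other 3 low tumours lay below the whole high side (1.32 ± 0.66, adjusted p = 0.788). Its other 2 probe sets gave 1.55 and 0.67, and on both osteosarcoma 5 was again above osteosarcomas 4, 7 and 8. Over the 32 neighbours, r with Rps4l ran from -0.611 to 0.432.

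**Figure D4:**
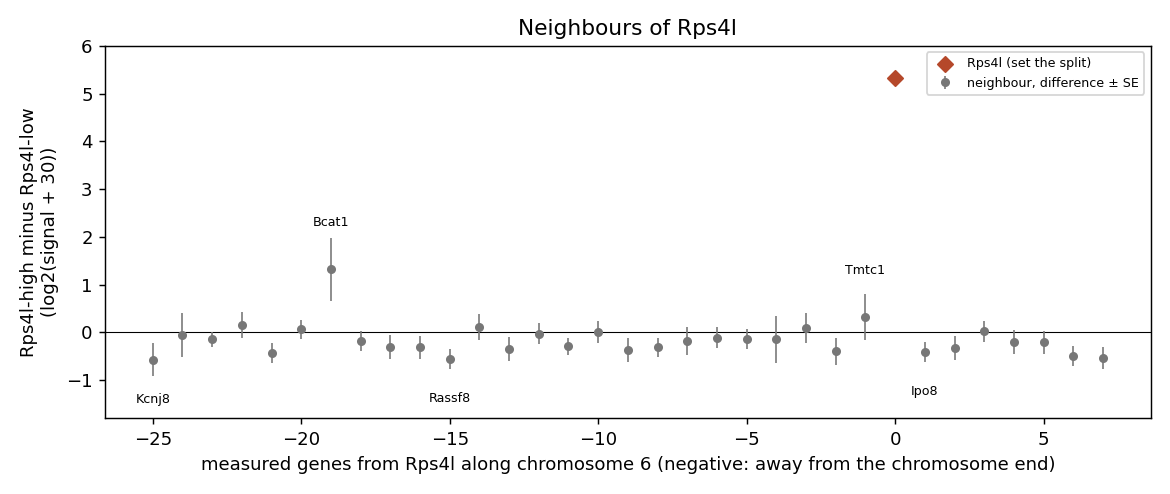
Difference between Rps4l-high and Rps4l-low osteosarcomas (log2(signal + 30), high minus low, with its standard error) for 32 measured neighbours on chromosome 6, by their place in the gene order counted from Rps4l. The neighbours lie between -0.57 and 1.32 with a median of -0.19, and Rps4l, which set the split, lies above all of them.

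By chromosome, the unadjusted differences were uneven in direction. On chromosome 6, which holds Rps4l, 11 of 629 genes lay above 0 at an unadjusted p under 0.05 (1.75%, against 3.42% over all genes) and 39 lay below 0 (6.2%, against 2.84%), with a median difference of -0.11. On chromosome 7 the counts were 79 above and 2 below 0 among 847 genes (9.33% and 0.236%, median 0.21), and on chromosome 10 they were 45 and 1 among 576 (7.81% and 0.174%, median 0.15). On chromosome 3 they were 5 and 56 among 608 (0.822% and 9.21%, median -0.18), and on chromosome 8 they were 9 and 44 among 632 (1.42% and 6.96%, median -0.17). Chromosome 6 was therefore not the one with the most such genes in either direction. In each tumour the median level of a chromosome's genes was also taken, relative to the other tumours. On each of chromosomes 1 to 19 and X these medians overlapped between the sides. For chromosome 6 they were -0.11 to 0.07 in Rps4l-high tumours and 0.01 to 0.19 in Rps4l-low tumours. The overlap there came from osteosarcoma 3 of the high side alone, at 0.07. On chromosome 3 it also came from osteosarcoma 3 alone, at 0.05. For chromosome 7 the medians were -0.16 to 0.24 in Rps4l-high tumours and -0.22 to 0.06 in Rps4l-low tumours. Whether copy number of whole chromosomes moved with these differences was not tested.

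**Figure D5:**
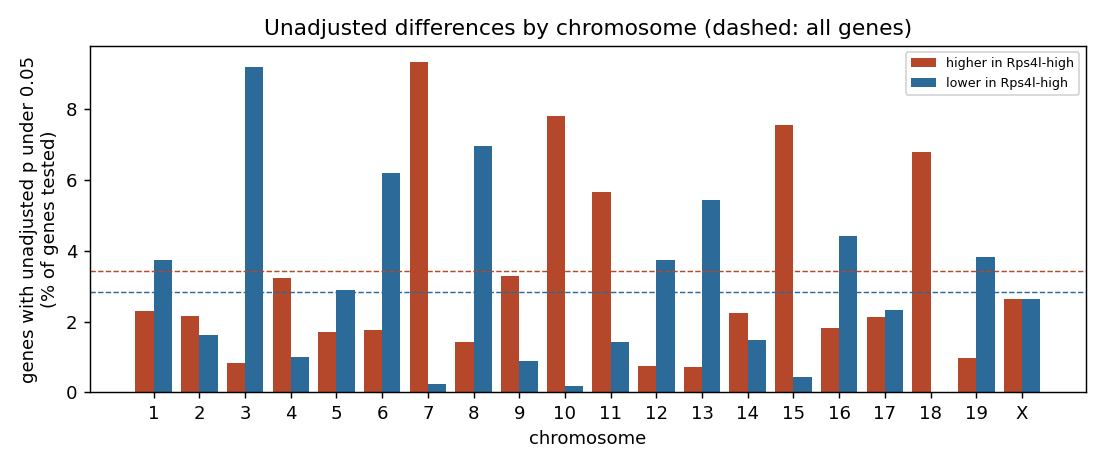
Share of tested genes on each chromosome with an unadjusted p under 0.05 between Rps4l-high and Rps4l-low osteosarcomas, in percent, with genes above 0 left and genes below 0 right in each pair of bars. Dashed lines give 3.42% and 2.84% over all genes; chromosome 7 reaches 9.33% above 0 and chromosome 3 reaches 9.21% below 0, while chromosome 6 stands at 1.75% and 6.2%.

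Genes of the X and Y chromosomes were read to see whether the split followed the sex of the animal, which the labels do not give. Xist, the RNA that silences one X chromosome in females, had 112, 3923 and 9250 as its lowest, median and highest signal in Rps4l-high tumours and 5902, 1967, 8419 and 2518 in Rps4l-low tumours. The value of 112 was osteosarcoma 6 and the other 11 tumours were at 1312 or more. Eif2s3y, on the Y chromosome, was at 541 in osteosarcoma 6 and at most 54.9 in the other 11 tumours. Kdm5d, also on the Y chromosome, was at 179 in osteosarcoma 6. Uty, a further Y-linked gene, did not single out that tumour on its brighter probe set. It was at 32 in osteosarcoma 6, within 5.2 to 50.5 over the Rps4l-high tumours, and at 8.7, 50.4, 47.7 and 46.8 in the Rps4l-low tumours. Its other probe set read 97.4 in osteosarcoma 6 and at most 36.7 in the other 11 tumours. Xist, Eif2s3y and Kdm5d thus set apart 1 Rps4l-high tumour, and none of the 4 genes divided the tumours as Rps4l did or was called.

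None of the ribosome genes tested was called between the sides, which is also the result over all 11814 genes tested (0% called). Of 8 ribosomal paralogues listed, 6 were measured and none was called. Rpl39l, a paralogue used in the male germ line, was bright in osteosarcomas on both sides, with 4475, 13568 and 22712 (lowest, median and highest) in Rps4l-high tumours and 9847, 14276, 2104 and 11948 in Rps4l-low tumours, against 11.4 in mc3T3 and 221 in the rhabdomyosarcoma array. Its difference was 0.60 ± 0.51 (adjusted p = 0.828), and -0.02 without osteosarcoma 7. Rpl22l1 (-0.41 ± 0.30), Rpl3l (0.51 ± 0.76), Rps27l (0.18 ± 0.31) and Rpl7l1 (-0.01 ± 0.21) had adjusted p-values of 0.812 or more. Rpl3l was at 0.02 without osteosarcoma 6 and at 0.31 without osteosarcoma 5 or 9, and Rpl22l1 was at -0.19 without osteosarcoma 7. Of 78 cytosolic ribosomal proteins listed, 42 were measured, none was called and the median difference was -0.08. Differences lay above 0 for 10 of the 42. Of 25 genes of ribosome assembly and the nucleolus, all were measured, none was called and the median was 0.07.

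Lists for strain, cell types and pathways gave the same count, which is again that over all genes (0% called). Of 20 genes listed as variable between mouse strains, 12 were measured, none was called and the median was -0.06. Among them Nnt, the mitochondrial transhydrogenase, had 509, 1345 and 1796 (lowest, median and highest) in Rps4l-high tumours and 1480, 895, 1329 and 1631 in Rps4l-low tumours, and so was on in all 12. Ifi202b, an interferon-inducible gene, ranged from 45.1 to 1489 in Rps4l-high tumours and from 114 to 823 in Rps4l-low tumours. Over the 23 lists, 293 of 387 members were measured and none was called, and 22 lists had a median within 0.5 of 0. Osteoblast and bone matrix genes had a median of 0.07 over 18 members, osteoclast genes -0.28 over 16 and macrophage genes 0 over 18. Cartilage genes had a median of 0.22 over 10 and cell cycle genes -0.32 over 16. After skeletal muscle, the medians furthest from 0 were -0.47 over 9 neutrophil genes and 0.42 over 6 adipocyte genes. Differences lay above 0 for 4 of the 16 osteoclast, 3 of the 16 cell cycle, 2 of the 9 neutrophil and 4 of the 6 adipocyte genes.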

How the data were processed

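Per the labels' protocols, total RNA of each of the 14 samples was labelled with biotin and read on its own array. The deposited values are the signal intensity of 45101 probe sets on a linear scale, made with GCOS per the submitters' processing notes, which name no version. The mean of every array, without the top and bottom 2%, was 500.0. The number of arrays limits the precision. The deposited intensity values were converted to log2(signal + 30).

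Probe sets were named from the platform annotation, updated through a gene table of assembly GRCm38.p6 (34958 with 1 symbol, 932 with several genes, 9147 with none, 64 controls, of which 34754 were updated). The build of the files is not given in the sources used here, so the table served only for names, chromosomes and gene order. Probe sets had to reach 200 on at least 1 array (22479 kept), and the brightest stood for its gene, which gave 11814 genes, with Rps4l left out because it set the split. The 12 osteosarcomas were fitted with limma 3.58.1 in R 4.3.3 (lmFit and eBayes, two-sided, no covariates) and Benjamini-Hochberg adjustment over all genes. On-off genes, neighbours and lists were counted with no test.

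The members, gene lists and tests were chosen with earlier results of these data known. Named genes are the 10 smallest p-values in each direction, the 5 nearest neighbours on each side, the paralogue and sex genes, the highest and lowest r with Rps4l, and strain-variable genes that were on-off. Others, among them Idh2, Cpz, Bmp5, Psma8, Acta1, Ifi202b, Nnt, Bcat1, Sfmbt2, Maob, Adam23 and the bone markers, were picked after their values were seen. Alternatives changed the scaling, the pseudocount, the filter, the probe set rule, the tumours fitted and the on-off rule.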

Additional observations from a re-analysis of the deposited data

Results flagged for a closer look

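Values that stood apart within a side of the split were looked for in 85 sets of tumours over 50 named genes with Dixon's criterion, and 5 sets held one. Chance gives about 1 in 20 such sets, so this number is near what the criterion returns by itself. In osteosarcoma 6, Xist was at 112.1 and Eif2s3y at 540.9, each apart from the other Rps4l-high tumours. These 2 values did not stand alone. The other probe sets of Xist were also lowest in osteosarcoma 6 (16 and 7.1), and Kdm5d was highest there (179). Uty was highest there on 1 probe set (97.4) but not on its brighter one (32). Among neighbours of Rps4l, Klhl42 was at 32.2 in osteosarcoma 12 of the high side and Ccdc91 at 248.3 in osteosarcoma 7 of the low side. Srpr, a receptor subunit of protein export with an r of 0.866 with Rps4l, was at 3305.3 in osteosarcoma 2, below the other Rps4l-high tumours.

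In arrays outside the split, the tumour labelled rhabdomyosarcoma read 266.7 for Rps4l, against 4.7 in mc3T3, and 819 for Gbp2b, against 2.8 in mc3T3. Each is 1 array, so no spread can be given.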

How the results depend on the processing

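The counts of called genes stayed at 0 in both directions, except when 1 tumour was left out. Over the 12 such fits the count of higher genes ran from 0 to 3 and that of lower genes from 0 to 1, with 1 higher gene without osteosarcoma 1 and 3 higher and 1 lower without osteosarcoma 5. No neighbour of Rps4l was called under any alternative run. The 52 on-off genes became 141 with a gap of 1, 18 with a gap of 2, 17 with at least 3 tumours on each side and 21 with signal + 100. With 2 settings chosen after seeing the data they became 138 with no signal border and 83 over all tested probe sets. None had the Rps4l division under these or quantile normalization, but few had 8 or 4 tumours on and could have matched it. There were 0 such genes with a gap of 2, where the result was thus fixed in advance, and 1 with signal + 100. There were 3 under quantile normalization, 4 with at least 3 tumours on each side, 6 with no signal border and 4 over all tested probe sets. Over 49 named genes and 22 alternatives, 1023 of 1064 differences kept their direction and their side of the threshold, 40 values in 17 genes changed sign with none of them called, and 1, Lingo3 without osteosarcoma 1, came to pass it. Across the alternatives Lingo3 ran from 1.4 to 3.37, with adjusted p from 0.00352 to 0.92. No paired analysis was possible because the numbers of the osteosarcomas only name them and both sides come from 1 group. Probe sets near 0 in a tumour, such as Lingo3 on the low side, give dim signals whose order is unsure.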
